A study of Rattus norvegicus with 320 samples.

Results

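The rat miR-463 to miR-883 cluster is a group of X-linked microRNAs (miRNAs) that were followed here through postnatal life of the testis. Its members were taken by name: every product, of either arm, of miR-201, miR-463, miR-465, miR-471, miR-509, miR-547, miR-741, miR-742, miR-743a, miR-743b, miR-871, miR-878, miR-880, miR-881, miR-883, miR-3580 and miR-3585 in the table, together with the unannotated candidate rno_miR_chrX_48878. This gave 32 of the 616 miRNAs measured (604 known miRNAs and 12 candidates). The 32 came from 17 named loci and the candidate, and 14 of the loci were represented by both arms.

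Small RNA was sequenced from 320 organ samples of untreated rats of the strain that the labels spell Fisher 344, at 2, 6, 21 and 104 weeks of age. Testis was taken from males, uterus from females, and adrenal gland, brain, heart, kidney, liver, lung, skeletal muscle, spleen and thymus from both sexes, which made 80 groups of 4 rats each. RNA was extracted from ground organ tissue, so the values are averages over all the cells of that tissue. A smaller number of cells of a type cannot be told apart from less RNA per cell. Different rats were used at each age, and the testes came from the same males as the other male organs. The tables hold raw read counts, which are given here as CPM, scaled to the total of all miRNA counts of the library. Testis libraries held 734282 to 7383298 counts, with 734282 to 1115632 at week 6 and 4464215 to 7383298 at week 104. The study removed 2 libraries, 1 of spleen and 1 of brain, because they clustered with uterus samples and not with their own organ. These were left out of the comparisons unless stated. All 24 pairs of replicate testis libraries differed by more than sampling noise, and each age was counted as n = 4.

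An miRNA is cut from a hairpin precursor, which can yield a 5p product from its 5′ arm and a 3p product from its 3′ arm. The mature strand guides Argonaute proteins to messenger RNAs, mainly through bases 2 to 8, the seed. X-linked miRNA genes between Slitrk2 and Fmr1 are known in rodents for expression in male germ cells. They form a fast-evolving family of tandem copies, whose mature sequences differ between neighbours. The testis of a juvenile rat holds Sertoli cells, spermatogonia and early spermatocytes, and spermatids and sperm accumulate as males mature.

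The mature sequences below are printed as the count table gives them, but not for all members with similar seeds. They are those of the most abundant members, of the candidate, of the members that share a seed and of some close sequences. Each runs 5′ to 3′ with the seed in capitals. The first group holds the most abundant members.
miR-3585-5p: uUCACAAGaaggugucuuucau
miR-871-3p: uGACUGGCaccauacuggauaa
miR-743b-3p: gAAAGACAccauacugaauaga
miR-881-3p: uAACUGUGgcauuucugaauag
miR-201-5p: cACUCAGUaaggcauuguuc
miR-741-3p: aAAGAUGCcacgcuauguagau
miR-463-5p: uACCUAAUuuguuguccauca
The next 3 share the seed AUUCAGA, the only seed held by more than 1 member.
miR-743a-5p: uAUUCAGAuuggugccugucau
miR-871-5p: uAUUCAGAuuggugccggucacau
miR-881-5p: uAUUCAGAgugguagcagu
The last 4 show miR-743a-3p beside its neighbour printed above, the candidate, its closest member and the single non-member that shares a seed with any of the 32.
miR-743a-3p: gAAAGACGccaaacuggguaga
rno_miR_chrX_48878: gUUGGCACuuucuugagugagg
miR-547-3p: aUUGGUACuucuuuaagugaga
miR-96-5p: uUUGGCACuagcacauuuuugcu

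The 32 members held 30 different seeds, so most members carried a seed of their own although many of the sequences were alike. Over the whole sequence, miR-871-5p and miR-743a-5p matched at 20 of 22 aligned bases, miR-201-3p and miR-465-3p at 19 of 22, and miR-743a-3p and miR-743b-3p at 18 of 22. The candidate matched miR-547-3p at 16 of 22 bases, but its seed UUGGCAC was that of miR-96-5p, an miRNA of sensory cells. The authors allowed fewer than 2 mismatched bases in mapping, so counts of the closest pairs could be shared between them to an unknown degree. Mature lengths ran from 19 to 24 bases, and 24 of the 32 began with U. RefSeq listed a mature entry for 29 of the 32.

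On the GRCr8 assembly, RefSeq placed all 17 loci on the minus strand of chromosome X, in a pair of dense blocks. The first block, chrX:150444098-150488242, held 13 loci (miR-743a, miR-743b, miR-742, miR-883, miR-471, miR-741, miR-463, miR-880, miR-878, miR-881, miR-871, miR-3580 and miR-465 in order of coordinate) and gave 23 of the 32 miRNAs. RefSeq lists 1 more miRNA locus in the interval, Mir3551 between miR-471 and miR-741, which the rule does not name and which was not analysed here. The second block, chrX:151706708-151732885, held miR-3585, miR-201, miR-547 and miR-509 and gave 8. A gap of 1218 kb with 5 protein-coding genes (Ell2l1, Hsfx3l, Fam9cl1, Fam9c and 4933436I01Rikl) lay between the blocks. Slitrk2, a neuronal membrane protein gene, stood next to the first block, and Fmr1, the fragile X gene, next to the second. The study places the candidate on the minus strand of chromosome X in its own build, rn7, and since positions were not converted between builds it was assigned to neither block. The study's list of candidates also marks it as matching a known piRNA, a class of small RNA abundant in germ cells, and whether its reads come from an miRNA was not tested. These coordinates are those of the RefSeq table, not of the deposited files. The split into blocks was made after the values had been seen, so differences between blocks are described and not tested.

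Together the 32 miRNAs made up 3.67% ± 0.593 (SD, n = 4) of all miRNA counts in testis at week 2, 10.1% ± 2.28 at week 6 and 8.77% ± 1.94 at week 21, but 0.372% ± 0.331 at week 104. The week 104 libraries fell into a higher pair (0.688% and 0.626%, replicates 1 and 2) and a lower pair (0.0868% and 0.0855%, replicates 3 and 4), all below every library of the earlier ages. The share was 6.45 percentage points higher at week 6 than at week 2, 8.40 points lower at week 104 than at week 21 and 3.29 points lower at week 104 than at week 2 (exact two-sided permutation test, p = 0.0286 for each, the smallest that 4 against 4 libraries can give, adjusted p = 0.0381 over 4 contrasts). Between weeks 6 and 21 the share differed by −1.34 points (exact permutation test, adjusted p = 0.343). The study reports that piRNA dominated the testis libraries of adolescent and adult rats, the ages between youngest and oldest. In most other libraries miRNA dominated. All shares, CPM values and fold changes here are relative to miRNA counts alone. A rise among miRNA counts need not be a rise among all small RNA, which was not tested.

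The sum was carried by a few members. Over the 16 testis libraries miR-3585-5p averaged 11210 CPM and made up 19.6% of the cluster's mean level, followed by miR-871-3p (10319 CPM), miR-743b-3p (9407 CPM), miR-881-3p (6602 CPM) and miR-201-5p (5735 CPM). The order changed with age: miR-3585-5p had the highest mean at weeks 2 and 104, miR-871-3p at week 6 and miR-743b-3p at week 21. The remaining 27 ranged from 3210 CPM for miR-741-3p to 41.2 CPM for miR-465-3p. The candidate ranked 15th, with a mean of 403 CPM.

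**Figure D1:**
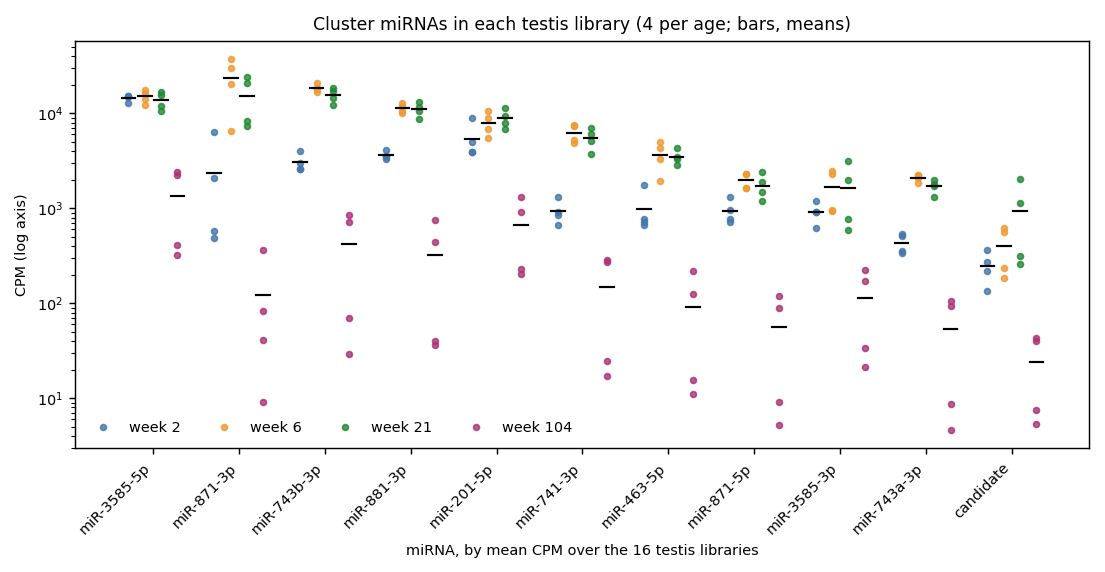
CPM on a log axis of the 10 most abundant cluster miRNAs and the candidate rno_miR_chrX_48878 in each of the 16 testis libraries; points are libraries coloured by age and bars are means of 4. All week 104 points lie below the points of the earlier ages for each of the 11 miRNAs, and miR-871-3p spreads from 490.0 to 6362 CPM at week 2 and from 9.07 to 361 CPM at week 104.

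In the first block, the marker miR-743b-3p was high at weeks 6 and 21. It was measured at 2611, 2592, 2985 and 4037 CPM in the 4 libraries of week 2, at 20728, 18049, 18372 and 16953 at week 6, at 18364, 14540, 17254 and 12356 at week 21, and at 844, 726, 29.3 and 69.3 at week 104. Its libraries of week 2 and of week 104 overlapped with those of no other age, while weeks 6 and 21 overlapped. For miR-871-3p the 4 values were 6362, 490.0, 571 and 2107 CPM at week 2, 30380, 37166, 6492 and 20344 at week 6, 24166, 8262, 20882 and 7380 at week 21, and 82.9, 361, 41.2 and 9.07 at week 104. Its libraries spread widely within each age, and the highest of week 2 lay just under the lowest of week 6.

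For miR-881-3p the libraries held 3330, 3579, 3500 and 4126 CPM at week 2, 11857, 10710, 12757 and 10173 at week 6, 11793, 8640, 10722 and 13166 at week 21, and 763, 443, 40.2 and 36.2 at week 104. For miR-741-3p they held 857, 662, 919 and 1302 CPM at week 2, 7361, 7607, 4895 and 5287 at week 6, 7022, 5100, 6013 and 3730 at week 21, and 288, 270.0, 17.0 and 24.5 at week 104. Both showed the same order of ages as miR-743b-3p, with weeks 6 and 21 overlapping. For miR-463-5p the values were 727, 673, 769 and 1747 CPM, then 4967, 4360, 3322 and 1930, then 4278, 2834, 3328 and 3488, and 217, 126.2, 11.2 and 15.4 at week 104. Replicate 4 of week 2 stood close to the lowest library of week 6.

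The next members of the block were measured at lower levels. For miR-743a-3p the libraries held 359, 338, 516 and 531 CPM at week 2, 2234, 2257, 2092 and 1838 at week 6, 1971, 1720, 1819 and 1328 at week 21, and 107, 93.2, 4.65 and 8.80 at week 104. For miR-871-5p, the less abundant arm of its hairpin, they held 721, 771, 959 and 1332 CPM, then 2276, 2285, 1649 and 1656, then 2405, 1880, 1470 and 1202, and 121, 89.3, 5.20 and 9.21 at week 104. Both were lowest at week 104 and overlapped between weeks 6 and 21.

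In the second block, miR-3585-5p was measured at 12892, 14966, 15107 and 15340 CPM at week 2, at 17548, 16320, 14207 and 12386 at week 6, 16908, 15719, 11838 and 10700 at week 21, and 2259, 2429, 411 and 324 at week 104. The libraries of weeks 2, 6 and 21 overlapped. For miR-201-5p the libraries held 3905, 3942, 4982 and 8839 CPM, then 10554, 8966, 6865 and 5445, then 11315, 9360, 8012 and 6908, and 1332, 910, 204 and 229 at week 104. For miR-3585-3p they held 923, 626, 906 and 1210 CPM, then 2448, 2310, 930 and 964, then 3189, 1988, 779 and 588, and 171, 225, 21.6 and 33.6 at week 104. Both overlapped between weeks 2, 6 and 21, and only week 104 stood apart.

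The candidate was measured at 220.0, 134, 274 and 367 CPM at week 2, at 563, 628, 185 and 238 at week 6, at 2031, 1138, 314 and 257 at week 21, and at 39.6, 43.5, 5.34 and 7.58 at week 104. Relative to its mean, it varied more between the rats of week 21 than any of the 10 most abundant members, and its libraries of weeks 2, 6 and 21 overlapped.

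Between weeks 2 and 6, the period in which male rats pass puberty, 22 of the 32 miRNAs rose and none fell (edgeR quasi-likelihood test, adjusted p under 0.05 and a change of at least 1 on the log2 scale). Over all miRNAs, 14.9% rose and 21.6% fell by the same rule. All 22 belonged to the first block. The largest change was that of miR-871-3p, by 3.30 ± 0.90 on the log2 scale (SE, edgeR adjusted p = 0.00681). It was followed by miR-741-3p at 2.78 ± 0.56 (edgeR adjusted p = 0.000774) and miR-471-3p at 2.72 ± 0.48 (edgeR adjusted p = 0.000213), and miR-743b-3p rose by 2.64 ± 0.60 (edgeR adjusted p = 0.00175), a 6.06-fold difference in mean CPM. The 23rd member of the block, miR-871-5p, gave 1.09 ± 0.54 (edgeR adjusted p = 0.116). In CPM, all 4 libraries of week 6 lay above all 4 of week 2 for 23 of the 32 miRNAs, the whole of the first block; this held for 17.4% of all miRNAs.

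None of the 8 miRNAs of the second block passed the test between weeks 2 and 6. Their changes ran from −0.26 for miR-547-5p to 0.86 for miR-3585-3p on the log2 scale, and miR-3585-5p gave 0.06 ± 0.38 (edgeR adjusted p = 0.929). The candidate gave 0.71 ± 0.58 (edgeR adjusted p = 0.355). The median change over all 616 miRNAs was −0.25.

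The libraries were spread over 8 sequencing lanes, as the study's library names give them, and the testis libraries of weeks 2 and 6 had only 1 lane in common. With the lane as a covariate only 1 of the 22 calls, that of miR-871-3p, was kept, and the median change over the 32 was 0.83 against 1.85 without it. Lane and age can therefore hardly be told apart for this contrast. Without replicate 1 or 3 of week 2, or replicate 3 of week 6, 20 were called, and the lost miRNAs were both arms of miR-881. Of the other contrasts, weeks 6 and 21 also had 1 lane in common, as did weeks 2 and 104, and weeks 21 and 104 had 2. The permutation tests of shares took no account of lanes.

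**Figure D2:**
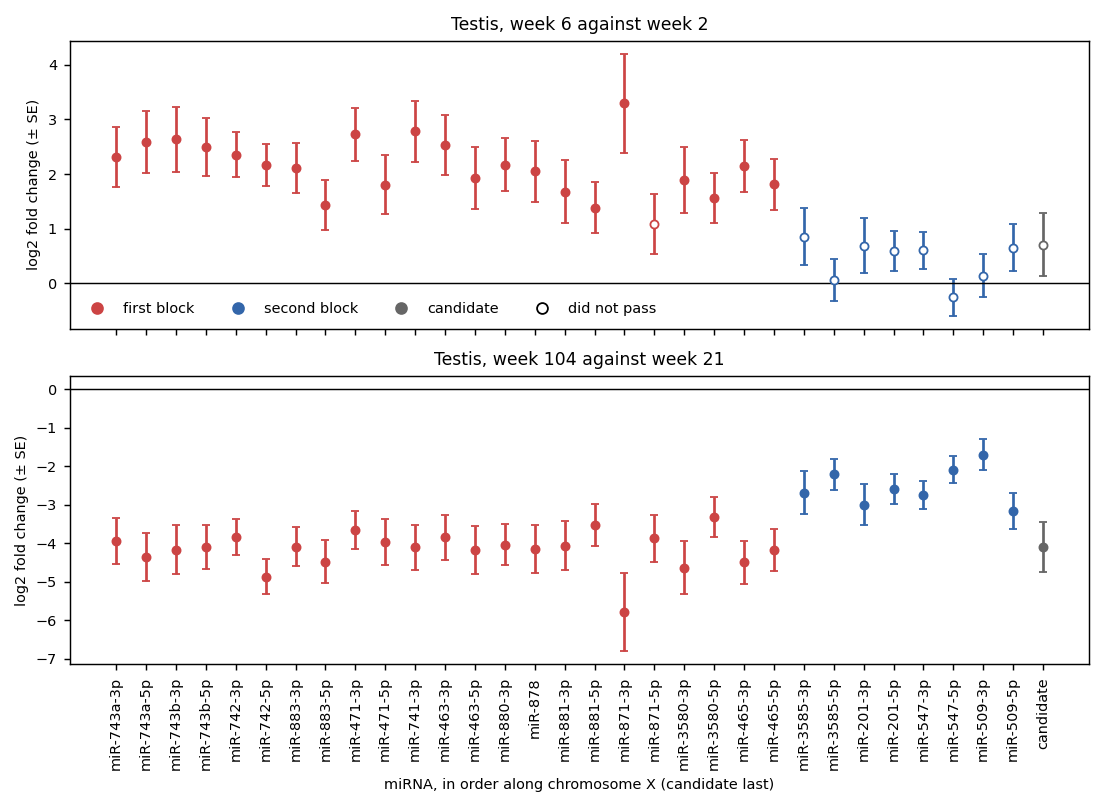
Log2 fold change with its standard error (edgeR) of the 32 cluster miRNAs in testis, in order along chromosome X with the candidate last; the upper panel compares week 6 with week 2 and the lower panel week 104 with week 21. Filled points passed the test. In the upper panel 22 of the 23 miRNAs of the first block passed and none of the second; in the lower panel all 32 passed, with the second block closer to 0.

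From week 6 to week 21, the study's adolescent and adult stages, no member passed the edgeR test in either direction. Over all miRNAs, 0.974% rose and 1.62% fell. In CPM, 6 members of the first block had all 4 libraries of week 21 below those of week 6 and none had them above, as 13.5% and 2.44% of all miRNAs did. DESeq2 also called none. At an unadjusted p under 0.05 there was 1 member, the candidate, with a change of 1.44 ± 0.58 on the log2 scale (edgeR adjusted p = 0.179). The changes of the other 31 lay between −0.39 for miR-881-5p and 0.89 for miR-201-3p.

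Between weeks 21 and 104 all 32 miRNAs fell and none rose, where 22.7% of all miRNAs fell and 20.3% rose (edgeR, same rule). In CPM every library of week 104 lay below every library of week 21 for all 32, as for 39.6% of all miRNAs, while 5.03% lay wholly above. In the first block the log2 changes ran from −3.32 for miR-3580-5p to −5.78 for miR-871-3p. Marker miR-743b-3p changed by −4.17 ± 0.64 (edgeR adjusted p = 2.19e-05), from a mean of 15628 to 417 CPM, and miR-871-3p by −5.78 ± 1.02 (edgeR adjusted p = 9.54e-05), from 15173 to 124 CPM. In the second block the changes were smaller, from −1.70 for miR-509-3p to −3.16 for miR-509-5p, and miR-3585-5p changed by −2.21 ± 0.40 (edgeR adjusted p = 0.000127), from 13791 to 1356 CPM. The candidate changed by −4.09 ± 0.65 (edgeR adjusted p = 3.33e-05).

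These log2 changes are smaller than the ratios of the mean CPM, which was 37.5-fold for miR-743b-3p. The fit scales libraries with edgeR's TMM factors, and with scaling by library size alone the median change over all miRNAs shifted by −1.24. All 32 calls were kept under that scaling, with DESeq2, with the lane as a covariate and without any single library.

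Compared with week 2, 29 of the 32 were lower at week 104, where 33% of all miRNAs were lower. The 3 that did not pass were miR-741-3p at −1.27 ± 0.53 (edgeR adjusted p = 0.0518), miR-463-3p at −0.90 ± 0.53 (edgeR adjusted p = 0.157) and miR-471-3p at −0.83 ± 0.46 (edgeR adjusted p = 0.138). In CPM the 4 libraries of each age did not overlap for any of the 32, being lower at week 104, as for 63.6% of all miRNAs, while 3.57% were higher in that way. The median over all miRNAs was −0.55, against −1.89 for the 32. The number called lower depended on the processing. It was 24 with DESeq2, 26 with scaling computed without the members and 32 with library size alone. Without any single library it ran from 25 to 31. Marker miR-743b-3p was not called with DESeq2, with the lane as a covariate or with scaling computed without the members.

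Summed by block, the first block stood at 13794 ± 3223 CPM at week 2, 73857 ± 17177 at week 6, 59938 ± 14235 at week 21 and 1375 ± 1386 at week 104. The second block stood at 22622 ± 3827, 26895 ± 6031, 26855 ± 6800 and 2318 ± 1903 CPM. The ratio of the first to the second block was thus 0.617 ± 0.162 at week 2, 2.76 ± 0.359 at week 6, 2.29 ± 0.549 at week 21 and 0.460 ± 0.219 at week 104. Its range was 0.492 to 0.850 at week 2 and 0.240 to 0.674 at week 104, and the lowest ratio of the ages between was 1.62.

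Other miRNA lists were read in the same libraries. The miRNAs of germ cells outside the cluster, miR-34b, miR-34c and miR-449, which are abundant in meiotic and later cells, all rose between weeks 2 and 6 (6 of 6) and all fell between weeks 21 and 104 (6 of 6, edgeR), with median log2 changes of 6.78 and −6.64. Their sum was 793 ± 61.7 CPM at week 2, 164200 ± 13848 at week 6, 166275 ± 9402 at week 21 and 744 ± 1009 at week 104. At week 104 it was 2197, 664, 70.3 and 47.0 CPM in replicates 1 to 4, so the rats with the higher cluster share also had the higher miR-34 and miR-449 sum. The gonadal miR-202, with both arms measured, summed to 26095 ± 6361, 11258 ± 2629, 8031 ± 987 and 3872 ± 884 CPM over the 4 ages, with 1 arm lower at week 6 and both lower at week 104 than at week 2.

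Of the 61 other X-linked miRNAs, 3 rose and 11 fell between weeks 2 and 6, and 8 rose and 10 fell between weeks 21 and 104. Their sum was 32112 ± 4992, 20101 ± 1842, 16163 ± 1361 and 14605 ± 5400 CPM. Of markers of other cells, the smooth muscle miR-143 and miR-145 fell in 3 of 4 rows between weeks 21 and 104. The sum of the 4 rows went from 175529 ± 33999 to 39105 ± 17139 CPM. Most of that sum was miR-143-3p, at 173065 CPM at week 21 and 38692 CPM at week 104. It was the row that did not pass, at −0.89 on the log2 scale. The epithelial miR-200 family fell in 4 of 9 rows between weeks 2 and 6 and in 1 between weeks 21 and 104. Red blood cell miRNAs rose in 4 of 5 rows between weeks 2 and 6 and fell in 1 between weeks 21 and 104. Their sum was 3769 ± 564, 16904 ± 4511, 16408 ± 4957 and 1210 ± 419 CPM over the 4 ages, highest at weeks 6 and 21 and lowest at week 104 like that of the cluster. Most of it was miR-486, at 16258 CPM at week 21 and 1117 CPM at week 104, while the median log2 change of the 5 rows between weeks 21 and 104 was 0.55. The lymphocyte list rose in 1 of 6 rows between weeks 21 and 104. Both endothelial miR-126a rows were within 1 on the log2 scale in both contrasts. The part of a changed cell make-up in the cluster's values was not tested.

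**Figure D3:**
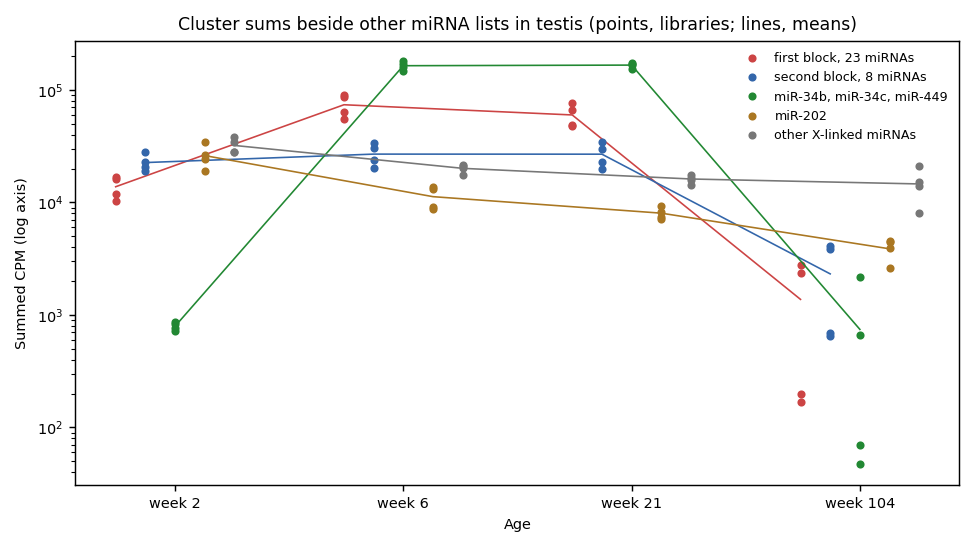
Summed CPM on a log axis at the 4 ages in testis for the first block (23 miRNAs), the second block (8), miR-34b, miR-34c and miR-449 (6), miR-202 (2) and 61 other X-linked miRNAs; points are libraries (n = 4 per age) and lines join means. The first block and the miR-34 and miR-449 list are both highest at weeks 6 and 21, and at week 104 both blocks and that list are spread over a wide range.

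By the size of the age profile, the non-members most like the summed cluster were miR-92b-3p, miR-100-5p, miR-129-5p, miR-296-3p and miR-363-3p. Over the 4 age means of log2(CPM + 1), each centred on its own mean, they differed from the cluster by a root mean square of 0.21, 0.22, 0.34, 0.36 and 0.38 among 303 miRNAs with a mean of at least 10 CPM. The most abundant of them, miR-100-5p, averaged 6629, 22756, 15722 and 401 CPM at the 4 ages.

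For the 14 loci with both arms measured, the ratio of arms within a library does not depend on scaling. Over the 16 testis libraries 7 loci gave more 3p and 7 more 5p counts. The 3p arm made up 99.1% of miR-881, 94.6% of miR-743b, 87.4% of miR-871 and 81.8% of miR-743a, but 16.6% of miR-463, 7.81% of miR-3585 and 4.19% of miR-201. The neighbours miR-743a and miR-743b thus had the same dominant arm, and miR-3585 and miR-201 of the second block the opposite one.

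The locus with the least constant arm share was miR-871. Its 3p share at week 2 was 89.8% in replicate 1, but 38.9% and 37.3% in replicates 2 and 3, with a mean of 56.8% ± 24.6. It was 89.9% ± 6.79 at week 6, 88.0% ± 5.32 at week 21 and 64.8% ± 23.2 at week 104. At miR-547 the 3p share was 53.9% ± 5.28, 67.4% ± 3.41, 73.8% ± 2.63 and 63.4% ± 3.58 over the 4 ages. None of the 42 tests of a change in arm ratio passed (exact two-sided permutation test, smallest adjusted p = 0.133). At an unadjusted p under 0.05 there were 3 loci between weeks 2 and 6, 1 between weeks 6 and 21 and 5 between weeks 21 and 104. The locus miR-547 was among them each time. All were at p = 0.0286, the smallest the exact permutation test can give here. Several of the 5 had few reads at week 104. The lowest library held 5 counts of both arms for miR-742, 8 for miR-3580, 30 for miR-509 and 41 for miR-471, against 336 for miR-547. Replicate 3 of week 104 held no reads of miR-465, so the pseudocount set its arms equal in the tests.

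**Figure D4:**
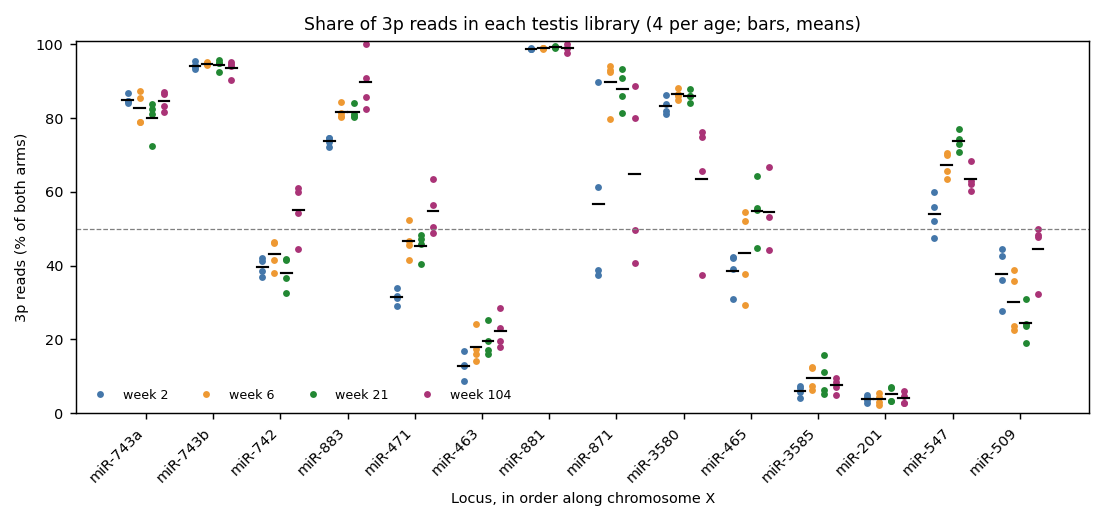
Share of 3p reads among the reads of both arms, in percent, for the 14 loci with both arms in each testis library, in order along chromosome X; points are libraries coloured by age (n = 4 per age), bars are means and the dashed line marks equal arms. Replicate 3 of week 104 held no reads of miR-465, so it has no point there and the bar leaves it out. miR-881 and miR-743b stay above 90% and miR-201 and miR-3585 below 16%, while miR-871 runs from 37.3% to 94.2%.

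As a share of the cluster's own counts, miR-3585-5p made up 40.4% ± 6.40 at week 2, 15.2% ± 1.92 at week 6, 15.9% ± 2.74 at week 21 and 39.2% ± 6.01 at week 104. Marker miR-743b-3p went the other way, at 8.29% ± 0.671, 18.9% ± 3.62, 17.96% ± 1.26 and 8.83% ± 4.07. Neither these nor any other of the 96 tests of such shares passed after adjustment (exact two-sided permutation test, adjusted p = 0.0722 for both miRNAs in the contrasts of weeks 6 and 2 and of weeks 104 and 21), although the libraries did not overlap in those contrasts. With 4 against 4 libraries p cannot fall below 0.0286, so few such tests cannot pass the adjustment over the family. At an unadjusted p under 0.05 there were 11 members of the first block and 6 of the second between weeks 2 and 6, 2 of the second between weeks 6 and 21, and 14 and 5 between weeks 21 and 104. Such shares add up to the whole in each library, so a gain of some members lowers the shares of others. In mean CPM miR-3585-5p stood at 14576 at week 2, 15115 at week 6 and 1356 at week 104.

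Against the other organs, all 32 miRNAs were enriched in testis at each of the 4 ages, that is, at least 4-fold higher with an edgeR adjusted p under 0.05 than in each of the 10 other organs. This rule was met by 5.68%, 7.14%, 6.82% and 6.17% of all miRNAs at weeks 2, 6, 21 and 104, and by 5.52% at all ages. The table holds only miRNAs with an average of at least 1 count per library, so a member near 0 elsewhere entered it only by being high in testis, and the candidate was selected by the study for organ-specific expression in these libraries. The count of 32 therefore describes the members and is no independent evidence of their place of expression.

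For 812 of the 1280 comparisons with another organ, that organ was at or under a floor of 3 counts per library. With such organs set to the floor, all 32 were still enriched at weeks 2, 6 and 21, but 18 at week 104. DESeq2 called 29, 26, 32 and 21 at the 4 ages. The smallest difference from any organ was found at week 104 for 22 of the 23 members of the first block and all 8 of the second. It ran from 3.60 to 7.28 on the log2 scale in the first block and from 2.31 to 4.26 in the second. The lowest value belonged to miR-547-5p against heart at week 104, 2.31 ± 0.38 (edgeR adjusted p = 2.76e-07), and every member of the second block except miR-3585-5p, which was closest to kidney, had heart as its nearest organ. Testis held 97.2 to 98.9% of all counts of each member of the first block, 78.4 to 87.3% of those of the second and 89.2% of those of the candidate.

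**Figure D5:**
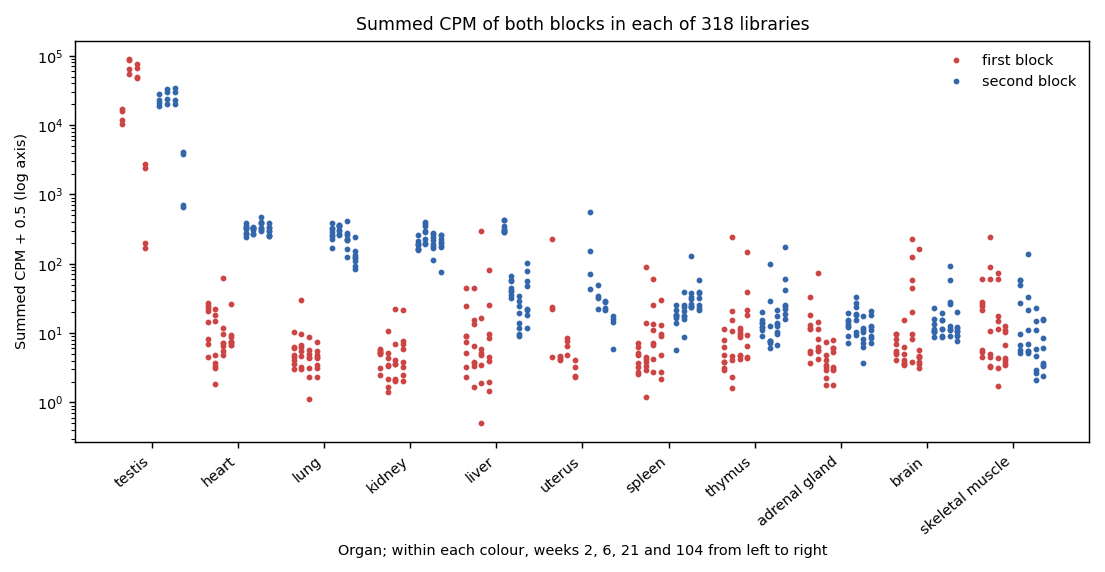
Summed CPM, plus 0.5, on a log axis, of the first block and the second block in each library kept, by organ; within a colour the 4 columns are weeks 2, 6, 21 and 104. In heart, lung and kidney the second block lies at 76.3 to 477 CPM and the first block at 0.635 to 61.1 CPM.

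Outside testis the second block was measurable in particular organs. Its sum was 322 ± 51.9 CPM in heart (SD, n = 32 libraries), 242 ± 93.2 in lung and 221 ± 69.5 in kidney, with a lowest library of 241, 83.5 and 76.3 CPM. Liver gave 111 ± 137 and uterus 69.6 ± 135 CPM (n = 16), while spleen, thymus, skeletal muscle, brain and adrenal gland averaged 13.2 to 27.7 CPM. The first block averaged 4.82 to 25.8 CPM in the same 10 organs.

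In heart miR-3585-5p stood at 171 ± 26.4 CPM, miR-201-5p at 97.6 ± 23.8, miR-3585-3p at 17.1 ± 8.42, miR-547-3p at 14.6 ± 3.55, miR-547-5p at 13.5 ± 4.35, miR-201-3p at 6.07 ± 3.39, miR-509-5p at 1.66 ± 1.28 and miR-509-3p at 0.736 ± 0.508. The abundant miR-3585-5p passed the floor in 298 of the 302 libraries of other organs. The candidate was measured at 3.82 ± 2.41 CPM in heart, 2.14 ± 1.42 in kidney and 2.11 ± 1.33 in lung, and at 1.56 CPM or less on average in the other organs outside testis. In heart no member passed the test for age.

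Over the 960 tests of age in other organs, 14 were higher and 39 lower at the later age, and over the 288 tests of sex, 3 were higher in males and none in females (edgeR). The background over all miRNAs was 3.52% higher, 7.65% lower, 0.343% higher in males and 0.108% lower. At an unadjusted p under 0.05 there were 140 of the age tests and 31 of the sex tests. In 3 of the 56 calls both groups were at or under the floor (miR-471-5p in adrenal gland, miR-743b-5p in kidney and miR-509-3p in liver), and 1 group was in 20 more. Calls under leave-one-out ranged from 8 to 14 higher and from 16 to 28 lower with age.

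In liver all 8 members of the second block were called lower at week 6 than at week 2, where 18.5% of all miRNAs were lower and 6.33% higher. The block summed to 336.5 ± 59.0 CPM at week 2 (SD, n = 8) and to 46.2 ± 11.99 at week 6, with no overlap between 282 to 427 and 31.7 to 65.1 CPM. It then stood at 18.6 ± 9.57 at week 21 and 44.5 ± 32.8 at week 104. By itself miR-3585-5p went from 213 ± 40.3 to 22.0 ± 6.23 CPM, a change of −3.14 ± 0.30 (edgeR adjusted p = 7.11e-11), and miR-201-5p from 77.7 ± 20.4 to 12.8 ± 4.499 CPM, a change of −2.47 ± 0.37 (edgeR adjusted p = 8.66e-07). Without 1 replicate number, 5 or 6 of the 8 were called. The only call in liver between weeks 21 and 104 was miR-3585-5p, at 1.27 ± 0.33 (edgeR adjusted p = 0.0214).

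In lung, miR-3585-5p, miR-547-3p, miR-547-5p and the candidate were lower at week 104 than at week 21, where 2.76% of all miRNAs were lower and 0.812% higher. The second block summed to 278 ± 67.4, 320 ± 42.0, 239 ± 86.3 and 132 ± 49.8 CPM at the 4 ages, and the ranges of weeks 21 and 104 overlapped (126.1 to 417 and 83.5 to 243 CPM). The change of miR-547-3p was −1.49 ± 0.22 (edgeR adjusted p = 2.78e-05) and that of miR-3585-5p −1.01 ± 0.13 (edgeR adjusted p = 4.93e-06).

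In uterus 7 members of the first block, 7 of the second and the candidate were called lower at week 6 than at week 2, against 17.4% of all miRNAs. Replicate 4 of week 2 stood highest, with 230 CPM of the first block and 561 CPM of the second, where the group medians were 22.2 and 111 CPM. Without replicate 4, 2 members of the first block and 1 of the second were called, and without replicate 3, 6 and 1, with the candidate not called in either case.

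In brain 7 members of the first block and 2 of the second were called higher at week 21 than at week 6 (2.92% of all miRNAs were), and 6 and 2 lower at week 104 than at week 21 (1.46%). At week 21 the first block ranged from 3.29 to 227 CPM, and the highest values, 227 and 123 CPM, were those of male replicates 2 and 1. The 4 males of that age held 44.1 to 227 CPM and the 4 females 3.29 to 19.6 CPM. With the removed brain library of week 6 included, neither contrast had a call. For weeks 21 and 6, leaving out replicate 1, 2 or 4 left 4 members of the first block, with 1, 0 and 2 of the second. Without replicate 3, 7 and 3 were called. For weeks 104 and 21, leaving out replicate 1, 2 or 4 left 2 of the first block and 0 of the second. Without replicate 3, 5 and 2 were called. In skeletal muscle miR-3585-5p, miR-201-5p and miR-743b-3p were called higher in males, against 0.649% of all miRNAs, with medians over 16 libraries of 11.3 against 3.00, 4.397 against 1.48 and 4.23 against 0.513 CPM. There were 7 calls without replicate 1, none without replicate 2 and 1 without replicate 3 or 4.

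The remaining calls were scattered. In adrenal gland miR-881-3p and miR-471-5p were called lower at week 21 than at week 6, in kidney miR-743b-5p lower at week 6 than at week 2, and in spleen miR-201-5p higher at week 21 than at week 6. In thymus miR-741-3p was called higher at week 6 than at week 2 and miR-201-5p higher at week 104 than at week 21. In skeletal muscle miR-547-3p was called higher at week 6 than at week 2 and miR-743a-3p lower at week 104 than at week 21. Except for miR-201-5p, 5.37 CPM was the highest group mean among them.

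The first block had a median of 4.99 CPM over the 302 libraries of other organs, and 8 of them, 5 male and 3 female, held more than 100 CPM, up to 295 CPM in a male liver of week 21. These libraries came from lanes 3, 4, 5, 6 and 7. In the brain of a female at week 104, 2 rows of the block were above the floor, against 7 to 14 in the rest of these libraries. The study reports that this brain library had a much lower proportion of miRNA than brain libraries had on average. The 2 libraries removed by the study stood further out. The spleen library, female at week 104, held 2165 CPM of the 32 miRNAs where the other 3 held 36.5 to 67.5, and the brain library, male at week 6, held 1466 where the others held 11.6 to 17.9. Both had been sequenced in lane 3.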

How the data were processed

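The authors trimmed the small RNA reads with fastp 0.23.2, mapped them with Bowtie 1.3.1 against miRBase, allowing fewer than 2 mismatched bases, and added candidates predicted on the rn7 genome. They deposited raw counts for the miRNAs that averaged at least 1 count per library. Groups were taken from the labels. CPM was calculated from the total of each library. Testis ages, organs within an age, and age and sex within other organs were compared with edgeR 4.0.16 (TMM, quasi-likelihood test, Benjamini-Hochberg adjustment over all 616 miRNAs) in R 4.3.3. A call required an adjusted p under 0.05 and a log2 change of at least 1, and enrichment in testis required 4-fold against each of the 10 other organs. Shares and arm ratios (pseudocount 0.5) were compared by exact permutation in Python 3.11.15 with NumPy 2.4.6. DESeq2 1.42.0, other scalings, filters, blocks and left-out libraries were tried as alternatives.

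Members, lists and tests were chosen with earlier results of these data known. The miRNAs named with values in each library were both markers, the candidate and the 10 with the highest mean CPM in testis; members that went against most, or were called in other organs, were also named. The blocks, defined by a gap of over 100 kb, were drawn after the values had been seen. The edgeR steps were tested on simulated counts: for testis at weeks 6 and 2 they recovered 143 of 200 miRNAs changed 4-fold with 1 false call among 416, and for testis and heart at week 6 165 of 200 with 4 false calls. P-values set a difference against the spread between libraries of a group, which holds effects of rat, lane and library together. In the organ comparisons the sexes were pooled, and organs of the same rat were counted as separate libraries. Library totals ran from 315550 to 10571766 counts, and floors cover counting error only.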

Additional observations from a re-analysis of the deposited data

Results flagged for a closer look

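In 25 of 204 checks, each of 1 miRNA or block sum in 1 group of 4 libraries, 1 library stood far from the other 3 by its gap relative to the range of the group. Chance alone gives about 1 in 20 such checks, but they share libraries and are not independent. In testis at week 2, miR-3585-5p was at 12892 CPM in replicate 1, below the other 3, of which the nearest was at 14966, and miR-463-5p was at 1747 CPM in replicate 4, where the nearest was at 769.

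The other such libraries were in organs outside testis. For the sum of the first block the libraries removed by the study stood at 1361 CPM (spleen, female, week 104, replicate 4) and 926 CPM (brain, male, week 6, replicate 3), with the nearest of their groups at 29.0 and 4.57 CPM. Their sums of the second block were 766 and 514 CPM, with the nearest at 58.1 and 14.7 CPM.

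Among the libraries kept that stood apart in this way, the first block was highest in a liver of a male at week 21 (295 CPM, replicate 1, nearest 5.31), a thymus of a female at week 6 (241 CPM, replicate 3, nearest 20.3) and a uterus at week 2 (230 CPM, replicate 4, nearest 22.9). The first block was at 164 CPM in a brain of a female at week 104 (replicate 4) and at 146 CPM in a thymus of a male at week 104 (replicate 2). That brain library had 2 rows of the block above the floor and, by the study's report, an unusually low proportion of miRNA. Lower values were those of a spleen of a female at week 6 (89.1 CPM, replicate 3), a liver of a female at week 104 (81.8 CPM, replicate 2), an adrenal gland of a female at week 6 (73.5 CPM, replicate 3) and a heart of a female at week 21 (61.1 CPM, replicate 2). Skeletal muscle at week 2 gave 60.2 CPM in a male (replicate 3) and 21.3 CPM in a female (replicate 2), and liver of a male at week 2 gave 43.7 CPM (replicate 2). The smallest were hearts of a female at week 104 (26.0 CPM, replicate 2) and a male at week 6 (21.6 CPM, replicate 1), and a thymus of a female at week 21 (8.27 CPM, replicate 2).

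For the second block the libraries were a spleen of a male at week 21 (129 CPM, replicate 4), thymuses at week 6 of a female (98.3 CPM, replicate 3) and a male (28.9 CPM, replicate 3), and the same brain of a female at week 104 (19.8 CPM). The thymus of the female at week 6 and the brain of the female at week 104 stood apart for both blocks.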

How the results depend on the processing

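Of 345 values that answer a comparison, 325 kept their direction and their side of the threshold or stayed within 1.5 times the reported count, as did 171 of 176 values of single miRNAs, and 0 reversed. With the sequencing lane as a covariate, 1 miRNA was called higher at week 6 than at week 2. Members enriched in testis at week 104 and at all ages numbered 21 and 20 with DESeq2, 13 and 13 with a mean count of at least 10 (only 13 members passed that filter at week 104, and every member tested was enriched), and 18 and 18 with organs at the floor set to the floor, an alternative chosen after seeing the data. With a replicate block the share of the cluster in testis differed by 6.45 (weeks 6 and 2), −8.40 (weeks 104 and 21) and −3.29 percentage points (weeks 104 and 2), each with an exact p = 0.125, the smallest that 4 pairs allow. Testes of different ages came from different rats, and deviations of libraries with the same number correlated at −0.41 to 0.46 over 24 pairs, so the number was not taken to pair them; the block left 22 calls for weeks 6 and 2 and 30 for weeks 104 and 2. For organs of the same rats the block left 28 of the 32 enriched at all ages. In other organs, including the removed libraries gave 9 calls higher with age, leaving out 1 replicate gave 8 to 14 higher and 16 to 28 lower, and calls higher in males ranged from 0 to 7. Outside testis, 812 of 1280 comparisons had an organ at or under the floor, so the fold against it is uncertain. The cause was not tested for any of these changes.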
